A study of Mus musculus with 8 samples.

Results

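Amino acid transporters were followed here in the oviduct of adult CD-1 mice that had received the phytoestrogen genistein (Gen) as neonates. The members were the gene names on the array that start with Slc1a, Slc3a, Slc6a, Slc7a, Slc36a, Slc38a or Slc43a and a number, without Slc6a2, Slc6a3 and Slc6a4. This rule, which used no measured value, gave 53 of 27962 gene names, on 93 probes. Newborn females received daily injections under the skin over PND1–PND5 (PND, postnatal day), of the corn oil vehicle alone in the control group and of Gen in corn oil, 50 mg/kg/day, in the other. Superovulation and mating followed at 6–8 weeks of age. Oviducts of plug-positive mice were collected on day 2 of pregnancy (GD2), 48 hr after hCG, and the embryos were removed. Each of the 4 control and 4 Gen biological replicates gave 1 Agilent whole mouse genome array with 1 dye. For its adult PCR samples the study combined both oviducts of 1 mouse, and for the arrays it does not state the number of mice per replicate. The 4 control arrays shared a slide and the 4 Gen arrays shared another, and therefore treatment cannot be told apart from slide. In whole oviducts, fewer cells of a type and less RNA per cell cannot be told apart either.

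Amino acid transporters are membrane proteins that move amino acids, and close relatives such as taurine, creatine and betaine, across the plasma membrane, often against a gradient and driven by sodium, chloride or protons. The Slc1 family carries glutamate or small neutral amino acids, Slc6 carries neutral and cationic amino acids, taurine, creatine and neurotransmitters, and Slc38 carries glutamine and other small neutral amino acids. Most Slc7 proteins are the light chains of exchangers that need a heavy chain, Slc3a1 or Slc3a2, to reach the surface. The oviduct epithelium secretes amino acids into the fluid that surrounds the early embryo, and glycine, taurine and glutamine are among those known to matter to embryos at these stages.

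Of the 53 genes, Slc1a3 and Slc6a14 were lower in Gen-treated mice and no gene was higher at an adjusted p under 0.05 in limma. Slc1a3, a glial-type glutamate and aspartate transporter also known as EAAT1 or GLAST, fell 2.65-fold. Slc6a14, which takes up neutral and cationic amino acids with sodium and chloride, fell 4.40-fold. The sequences of these 2 genes are shown first because they are the members on which the comparison turns. The brightest array probe for Slc6a14 read 60 bases of its transcript that lie within a span of 2184 bases at chrX:20170485-20172668 of the mouse build mm7, on the plus strand. No capitals are used in it because no part of it is singled out.
Slc6a14 probe: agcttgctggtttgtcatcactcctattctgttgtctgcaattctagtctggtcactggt
The 250 bases before the start of each gene come from RefSeq on the build GRCm38.p6, at chr15:8710808-8711057 on the minus strand for Slc1a3 and at chrX:21714650-21714899 on the plus strand for Slc6a14. They are written 5′ to 3′ on the strand of the gene, and capitals mark every match to a motif that was searched on both strands.
Slc1a3 promoter: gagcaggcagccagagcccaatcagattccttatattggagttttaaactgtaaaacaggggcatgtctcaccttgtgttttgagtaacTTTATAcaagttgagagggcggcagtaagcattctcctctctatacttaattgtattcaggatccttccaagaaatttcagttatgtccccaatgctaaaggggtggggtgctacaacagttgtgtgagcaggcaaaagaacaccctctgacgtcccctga
Slc6a14 promoter: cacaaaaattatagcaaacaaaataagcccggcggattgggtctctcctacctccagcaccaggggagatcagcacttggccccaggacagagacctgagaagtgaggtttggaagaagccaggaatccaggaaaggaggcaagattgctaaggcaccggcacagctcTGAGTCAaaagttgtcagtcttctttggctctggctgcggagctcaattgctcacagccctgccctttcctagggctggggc
The motifs, chosen after these stretches had been looked at, were the estrogen response element (GGTCA, 3 further bases, then TGACC), the C/EBP-ATF element TGATGNAA, the cAMP response element TGACGTCA, the AP-1 site TGANTCA and TATAAA. The Slc6a14 stretch held TGANTCA, starting 82 bases before the gene, a motif found in 6.75% of 32851 promoters of the same length. The Slc1a3 stretch held TATAAA on the opposite strand, starting 161 bases before the gene, a motif found in 12.4% of promoters. None of the 56 promoters in the table for 35 member genes held the estrogen response element, which was present in 0.0639% of all promoters, or TGACGTCA, present in 1.55%. TGATGNAA, the element through which ATF4 acts, was found in 3 of the 56, which belong to Slc7a7 and to Slc7a11, the cystine and glutamate exchanger. It was present in 3.45% of all promoters.

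A probe counted as measured when, in controls or in Gen-treated mice, the scanner software put it well above background on each of the 4 arrays, and each gene was read from its probe with the highest mean log2 signal. On this basis 43 of the 53 genes were measured, 37 of them on all 8 arrays, 6 were above background on no array and 4 lay in between. Signals are linear scanner intensities after scaling, group means are means of log2 signal given as a signal, and a log2 fold change is Gen minus control. The 2 called genes were 4.65% of the 43. Over the whole array, 16.2% of 41173 probes had an adjusted p under 0.05 in either direction. Among the 28963 measured probes the share was 5.02%, with 2.83% higher and 2.19% lower, so the members were called about as often as measured probes in general. When p-values were adjusted without the dim probes, 1.1% of measured probes were called and none of the member genes. At the thresholds of the study for its array data, the same 2 genes passed. These are an unadjusted p under 0.01, a signal of at least 100 and a change of at least 2-fold. The p-value here came from limma, and that of the study from analysis of variance. The background was 1.18% of all 41173 probes, dim ones included. The median log2 fold change of the measured members was 0.13, beside 0.02 for all measured probes. Over the 37 members on all 8 arrays it was 0.04, beside -0.005 for all probes on all 8 arrays. A positive sign was seen for 29 members and a negative one for 14, that is 67.4% positive beside 53.2% of all measured probes. Of the positive ones, Slc1a2, Slc6a12, Slc7a1, Slc7a2, Slc7a14 and Slc38a3 counted as measured only through the Gen arrays. No member counted only through the controls, so the share of positive signs leans on this filter. Of all probes on all 8 arrays, 49.1% were positive.

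**Figure D1:**
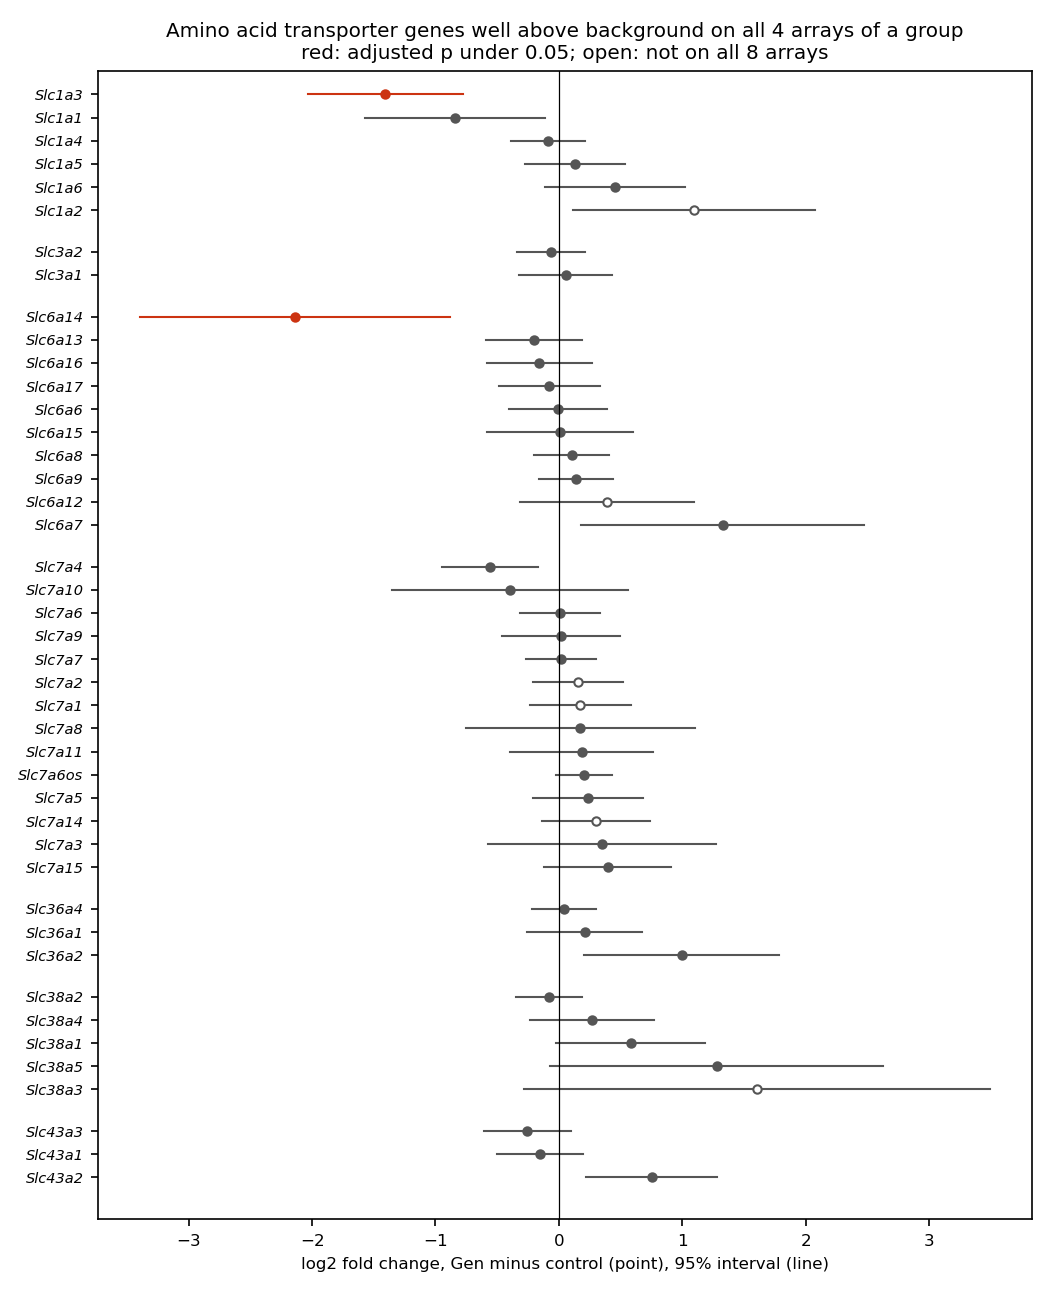
Log2 fold change (Gen minus control, point) with its 95% interval (line) for the 43 measured member genes, ordered within families. The 2 red genes, Slc1a3 and Slc6a14, passed an adjusted p under 0.05 and both lie to the left of 0, and open points were not above background on all 8 arrays.

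The glutamate carriers came first. Slc1a3 had signals of 13975, 12676, 14711 and 14833 in the controls and of 7043, 2943, 6921 and 5468 in Gen-treated mice. Every Gen array lay below every control array, and Gen replicate 2 was the lowest. Between means of 14022 and 5292 the difference was -1.41 ± 0.27 in log2 (SE, n = 4 and 4, limma adjusted p = 0.0236). This probe lies at chr15:8463725-8463784 on mm7, and its transcript is the RefSeq mRNA of the gene. A second probe, designed on another cDNA of the locus, was much dimmer and gave -0.65 (adjusted p = 0.298 in limma), and another, above background on 1 control array only and on all Gen arrays, gave -0.19 (adjusted p = 0.792). The 3 probes had the same sign, but only the probe of the RefSeq mRNA was called. Its adjusted p was 0.0510 without the dim probes, and between 0.0591 and 0.0675 when control replicate 1 or Gen replicate 1, 2 or 3 was left out, with the log2 fold change at -1.12 without Gen replicate 2.

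Slc1a1, the high-affinity glutamate, aspartate and cysteine transporter of epithelia, had signals of 7481, 7311, 6072 and 6726 in controls and of 5795, 1937, 4782 and 4063 in Gen-treated mice. The groups did not overlap, and as for Slc1a3 the lowest array was Gen replicate 2. The log2 difference was -0.84 ± 0.32 (SE), which did not pass the adjustment (limma adjusted p = 0.124). A second probe gave -0.69, again with no overlap. Groups that did not overlap were seen for 4 of the 37 members on all 8 arrays (10.8%), and for 12.4% of 24923 probes on all 8 arrays. Besides Slc1a1 and Slc1a3 these were Slc7a4, which was lower, and Slc7a6os, which was higher.

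The other Slc1 genes did not pass the test. The neutral amino acid exchanger Slc1a5 was read at 22594 in controls and 24732 in Gen-treated mice, with a log2 fold change of 0.13 (95% interval -0.27 to 0.53). Slc1a4, its relative, was at -0.09 (-0.39 to 0.21). Slc1a2, the main glutamate transporter of astrocytes, was near background, with signals of 33.7, 43.9, 26.9 and 21.4 in controls and of 63.1, 35.9, 147 and 53.2 in Gen-treated mice. The signal passed background on 1 control array and on all Gen arrays, with a log2 fold change of 1.10 (limma adjusted p = 0.134). That value rests on control signals near background, and was 0.67 with a floor on dim signals and 0.43 with the normexp background correction.

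**Figure D2:**
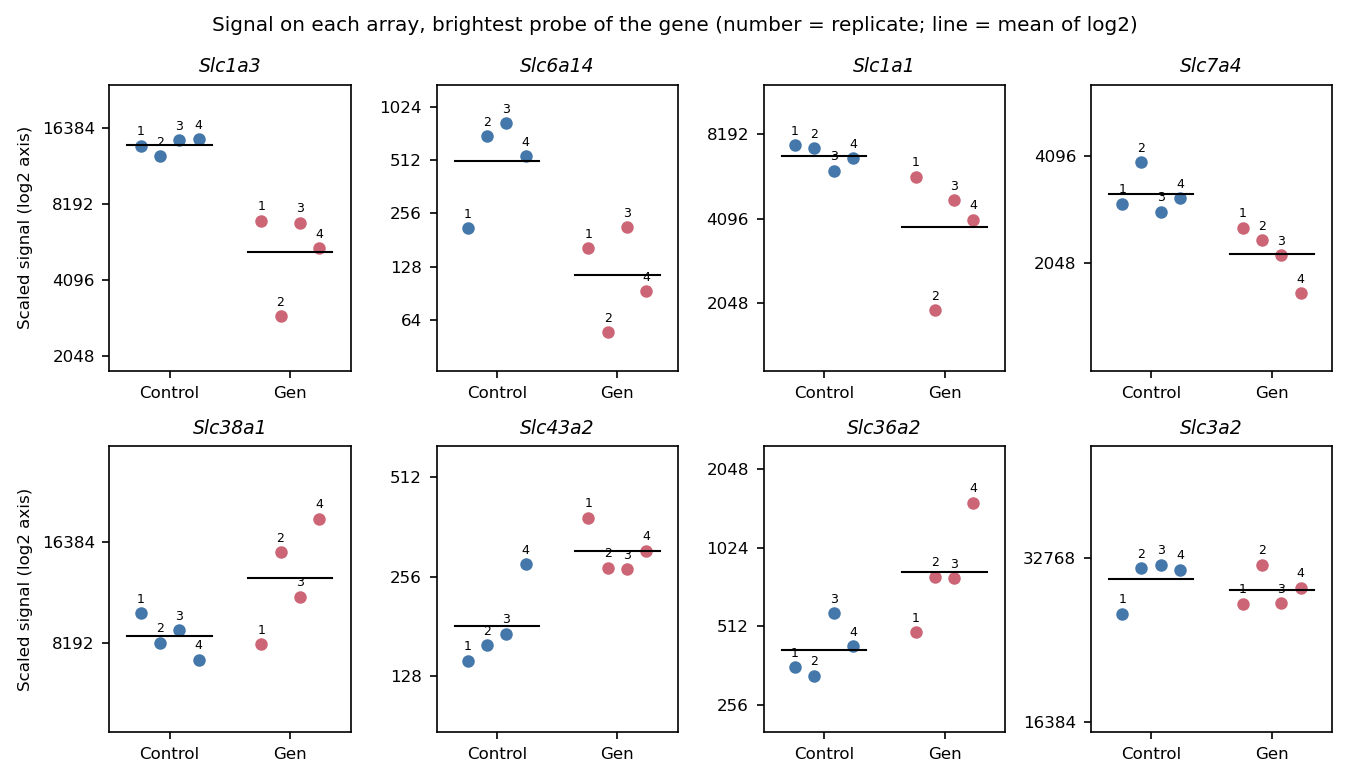
Scaled signal on each array (vertical log2 axis) for 8 members, with the replicate number at each point and a line at the mean of the log2 signals. Controls and Gen do not overlap for Slc1a3, Slc1a1 and Slc7a4, whereas for Slc6a14 control replicate 1 (211) lies just under the highest Gen array (214).

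Slc6a14 was the member with the most negative log2 fold change of those measured. Its signals were 211, 699, 831 and 540 in controls and 163, 54.4, 214 and 93.0 in Gen-treated mice. Control replicate 1 was within the range of the Gen arrays, and the other 3 controls were above all of them. Between means of 507 and 115 the difference was -2.14 ± 0.54 in log2 (SE, limma adjusted p = 0.0312). An exact permutation test over the 8 arrays, 2-sided, gave p = 0.0571, where the smallest p possible is 0.0286. A second probe in the same mRNA gave -2.08 (limma adjusted p = 0.0732). The adjusted p of the brighter probe was 0.0934 without the dim probes and between 0.0591 and 0.0816 when any 1 of the 8 arrays was left out.

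The other Slc6 genes that were bright in the oviduct moved little. Slc6a6, the taurine transporter, was at 23308 in controls and 23177 in Gen-treated mice (log2 fold change -0.01, 95% interval -0.40 to 0.39), and a second probe of it had the opposite sign, at 0.13. Slc6a9, the glycine transporter GLYT1 by which early embryos also take up glycine, was at 24419 and 26876 (0.14, interval -0.16 to 0.44). Slc6a8, the creatine transporter, was at 11390 and 12229 (0.10, interval -0.20 to 0.40). For each of these carriers the interval excluded a change of 1 on the log2 scale.

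The dimmer Slc6 genes were more spread. The neutral amino acid transporter Slc6a15 was at 142 and 143. Slc6a12, which carries betaine and GABA, was above background on 1 control array and all Gen arrays, at 24.6 and 32.3. The 2 probes of the GABA and taurine transporter Slc6a13, whose targets share most of their bases, had opposite signs, -0.20 and 0.46.

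Both heavy chains of the exchangers were near 0. Slc3a2, also known as 4F2hc or CD98, had signals of 25908, 31420, 31845 and 31206 in controls and of 27028, 31830, 27085 and 28925 in Gen-treated mice. The log2 fold change was -0.07 with a 95% interval of -0.34 to 0.21, and a second probe gave -0.08. Slc3a1, the partner of the renal cystine carrier, was dim at 101 and 105 (0.06, interval -0.32 to 0.43).

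Among the light chains, Slc7a5, which with Slc3a2 forms the LAT1 exchanger for leucine and other large neutral amino acids, was at 2103 and 2470 (0.23, interval -0.21 to 0.68). Slc7a7 and Slc7a6, which exchange cationic for neutral amino acids, were at 0.02 (interval -0.27 to 0.30) and 0.01 (-0.31 to 0.33). A second measured probe of Slc7a6 gave 0.36 (-0.22 to 0.94). Slc7a11, the cystine and glutamate exchanger, was at 0.19 (-0.39 to 0.77), and its 3 measured probes ranged from 0.02 to 0.19. Slc7a9, the partner of Slc3a1, was at 0.02 (-0.46 to 0.49). No light chain passed the test.

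Slc7a8, the LAT2 light chain, varied more within groups than between them. Its signals were 14352, 5907, 14175 and 6705 in controls and 6710, 14760, 15573 and 8467 in Gen-treated mice. Each group held 2 arrays with signals of 14175 or more and 2 with 8467 or less. The log2 fold change was 0.17 with an interval of -0.75 to 1.10.

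The cationic amino acid transporters Slc7a1 and Slc7a2 were near background, at 0.17 and 0.15. Slc7a4, a relative of these whose own substrate is not settled, had signals of 3010, 3927, 2855 and 3112 in controls and of 2579, 2377, 2154 and 1690 in Gen-treated mice. The groups did not overlap (-0.56 ± 0.17 in log2, SE, limma adjusted p = 0.0616). Slc7a6os, which the rule took in by its name, is the neighbour of Slc7a6 on the opposite strand and not a transporter. It was at 1960 in controls and 2254 in Gen-treated mice, with no overlap (0.20 ± 0.10 in log2, SE, limma adjusted p = 0.226).

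The rule took in 5 glutamine carriers of the Slc38 family, and other genes of that family which the array lists under older names were not analysed here. All 5 were measured and none passed the test. Their median log2 fold change was 0.58, beside 0.02 for all measured probes. It included Slc38a3, which counted as measured only through the Gen arrays. Over the 4 genes on all 8 arrays the median was 0.42, beside -0.005 for all probes on all 8 arrays. Slc38a1, a sodium-coupled glutamine transporter, was covered by 6 probes, and all 6 had a positive sign, from 0.44 to 1.07. Its brightest probe had signals of 10054, 8212, 8942 and 7309 in controls and of 8126, 15292, 11266 and 19264 in Gen-treated mice. Gen replicate 1 was within the controls and the other 3 were above them (0.58 ± 0.26 in log2, SE, limma adjusted p = 0.196). Of the other probes, 2 were called. The first had signals of 2077, 1044, 1281 and 917 in controls and of 2094, 2336, 2839 and 3523 in Gen-treated mice (1.07, limma adjusted p = 0.0354). The second, dimmer, rose from a mean of 130 to 236 (0.85, limma adjusted p = 0.0387). For both, all Gen arrays were above all control arrays, by a narrow margin. The probes of this gene share its locus and are not independent.

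Counted by probe instead of by gene, 5 of 67 measured member probes were called, 2 lower and 3 higher. This was 7.46%, beside the 5.02% of all measured probes given above. Besides those of Slc1a3, Slc6a14 and Slc38a1, the fifth was a probe of Slc43a2. None of the 5 was called when the dim probes were left out of the adjustment. Of 15 genes with several measured probes, 11 had all their probes on the same side of 0.

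**Figure D3:**
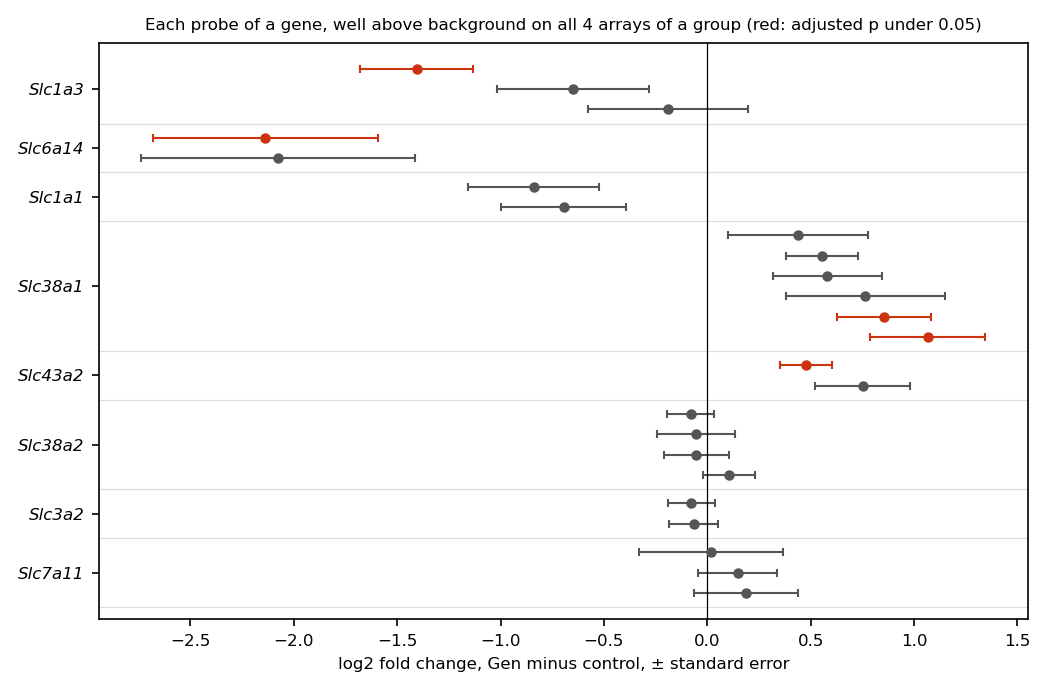
Log2 fold change (Gen minus control) ± SE of every measured probe of 8 member genes, with called probes in red. All 6 probes of Slc38a1 lie to the right of 0, while the 4 probes of Slc38a2 lie within -0.08 and 0.10.

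Slc38a2, the amino-acid-responsive member of the family, was at 14635 and 13835, with a log2 fold change of -0.08 (interval -0.35 to 0.19). Slc38a4 was at 0.27 (-0.23 to 0.77). Slc38a5, a glutamine, serine and glycine carrier, had signals of 873, 661, 672 and 588 in controls and of 3949, 3451, 698 and 832 in Gen-treated mice. Gen replicates 1 and 2 were far above the rest and replicates 3 and 4 lay within the controls (1.28 ± 0.59, SE, limma adjusted p = 0.199). Slc38a3, the glutamine transporter of liver and kidney, showed the same pair of high arrays, with 204, 25.2, 98.5 and 37.3 in controls and 527, 353, 82.9 and 104 in Gen-treated mice (1.60, limma adjusted p = 0.250). So did Slc6a7, the brain proline transporter, with 47.7, 42.4, 78.8 and 55.0 in controls and 183, 338, 78.6 and 71.1 in Gen-treated mice (1.33, limma adjusted p = 0.121). A second measured probe of Slc6a7 gave 0.80 (limma adjusted p = 0.306).

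Markers of ovarian cells were high on the same arrays. Cyp11a1, the first enzyme of steroid synthesis, had signals of 238, 354, 3903 and 271 in controls and of 23785, 21029, 4444 and 8710 in Gen-treated mice. All 10 of the ovarian steroidogenic and cumulus cell markers listed were measured, 4 were higher and none lower. The sum of the 7 on all 8 arrays ran from 4394 to 29588 in controls and from 33699 to 141682 in Gen-treated mice, with Gen replicates 1 and 2 highest. Of 11 listed oocyte and embryo markers 10 were measured, and all 10 had a positive log2 fold change, from 2.17 to 3.60 (median 2.9). None was called, although 9 had an unadjusted p under 0.05 in limma. Only 4 were above background on all 8 arrays, with a median of 2.52. The sum of these 4 ran from 626 to 6431 in controls and from 6301 to 37509 in Gen-treated mice. Gdf9, a factor secreted by oocytes, was highest in Gen replicate 2 (19371), where Slc6a7 was also highest. Without Gen replicates 1 and 2, the log2 fold change of Slc38a5 was 0.14 and that of Slc38a3 was 0.49. These arrays were left out after their high values for these genes had been seen. A smaller fold change followed from that choice, and nothing about a source of the RNA can be read from it. The part of ovarian or oocyte RNA in Slc38a5, Slc38a3 and Slc6a7 was not tested. Without the same arrays Slc1a3 was at -1.19 and Slc6a14 at -1.84, and no probe of the array passed the adjusted threshold.

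**Figure D4:**
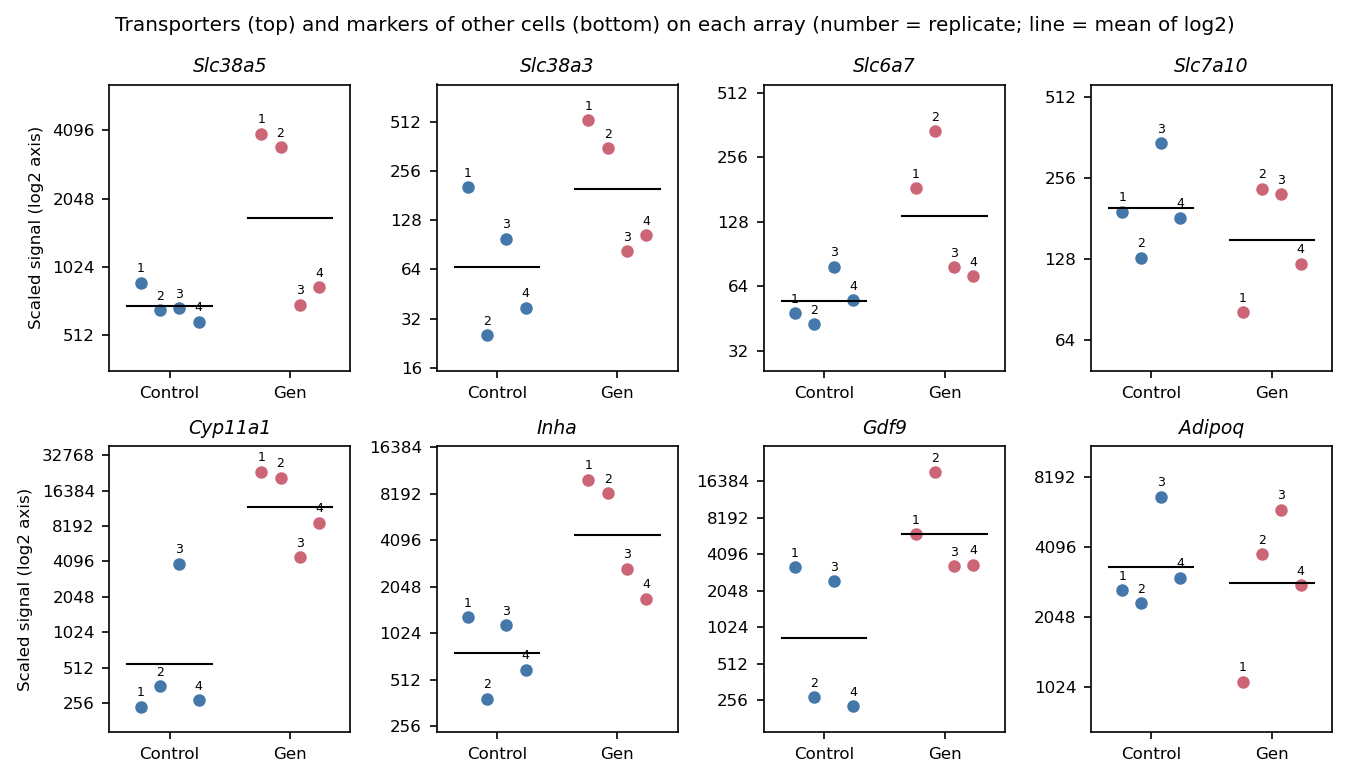
Scaled signal on each array (vertical log2 axis) of 4 members (top) and of 4 markers of ovarian cells, oocytes and adipocytes (bottom), with replicate numbers and a line at the mean of the log2 signals. Gen replicates 1 and 2 are the highest for Slc38a5, Slc38a3 and Slc6a7 and also for Cyp11a1, Inha and Gdf9, and Slc7a10 and Adipoq share their highest and lowest arrays.

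Slc7a10, a carrier of small neutral amino acids known as a surface protein of white adipocytes, had signals of 191, 129, 345 and 182 in controls and of 80.9, 233, 223 and 123 in Gen-treated mice (-0.40, interval -1.35 to 0.56). It was highest in control replicate 3 and lowest in Gen replicate 1. Adipoq, which encodes the adipocyte hormone adiponectin, was also highest in control replicate 3 (6731) and lowest in Gen replicate 1 (1077). Of 8 adipocyte markers 7 were measured and none was called, and their sum ran from 32809 to 86339 in controls and from 20247 to 77096 in Gen-treated mice. The part of fat attached to the oviduct in this gene was not tested.

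The proton-coupled Slc36 carriers and the Slc43 carriers completed the set. Slc36a2, which carries proline and glycine, had signals of 357, 330, 574 and 429 in controls and of 484, 793, 781 and 1523 in Gen-treated mice. Gen replicate 1 was below control replicate 3 and the other 3 Gen arrays were above all controls (0.99 ± 0.34, SE, limma adjusted p = 0.0945). Slc36a1, the lysosomal relative, was at 0.21 (-0.26 to 0.68). Slc43a2, the LAT4 transporter for branched-chain amino acids and phenylalanine, had signals of 143, 159, 172 and 279 in controls and of 386, 273, 270 and 307 in Gen-treated mice (0.75 ± 0.23, SE, limma adjusted p = 0.0633). Its other probe rose from a mean of 143 to 200 with no overlap (0.48, limma adjusted p = 0.0362). Slc43a1, its LAT3 relative, was at -0.15 (-0.50 to 0.20), and Slc43a3, which carries purine bases rather than amino acids, at -0.26 (-0.61 to 0.10).

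Over all measured members, 28 of 43 had a 95% interval within 1 on either side of 0 on the log2 scale, which excludes a 2-fold change, and 13 an interval within 0.5. The estimate was at least 2-fold for 6 genes, 4 higher (Slc1a2, Slc6a7, Slc38a3 and Slc38a5) and 2 lower (Slc1a3 and Slc6a14), while 3.93% of all measured probes were past 2-fold. Of the 4 higher, Slc1a2 and Slc38a3 were not above background on every control array, and the second measured probe of Slc6a7 was under 2-fold. The remaining measured members, Slc1a6, Slc6a16, Slc6a17, Slc7a3, Slc7a14, Slc7a15 and Slc36a4, had log2 fold changes between -0.16 and 0.46 and did not pass the test. The genes above background on no array were Slc6a5, Slc6a18, Slc6a19, Slc6a20, Slc7a12 and Slc7a13. For 10 of the 13 member probes on no array the adjusted p was under 0.05 with lower signal in Gen-treated mice, but this held for 63.5% of the 7900 such probes of the array, and no fold is given for them. Slc1a7, Slc6a11 and Slc36a3 were above background on some arrays of the Gen group only and did not count as measured. Over the whole array, every Gen array had more probes well above background than any control array.

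Genes that act beside the transporters were read from 5 lists, whose called shares of measured genes ran from 0% to 17.6%, beside 5.02% of all measured probes. Of the 20 amino acid response genes, the targets and partners of the stress factor ATF4, all were measured, 1 rose and 2 fell (median -0.02). Aldh18a1, which starts proline synthesis from glutamate, fell from 7516, 7292, 6814 and 7758 in controls to 4620, 2629, 4168 and 3833 in Gen-treated mice. The difference in log2 was -0.98 ± 0.18 (SE, limma adjusted p = 0.0236). Mthfd2, a mitochondrial enzyme of one-carbon metabolism, fell by 0.62 on the log2 scale (adjusted p = 0.0236 in limma). The stress-induced nuclear protein gene Nupr1 rose (0.94, adjusted p = 0.0383 in limma). Of the 25 genes of amino acid sensing and the mTORC1 kinase with a probe, all were measured and none passed the test in limma, nor had any an unadjusted p under 0.05, with log2 fold changes between -0.33 and 0.34.

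Among 16 measured enzymes of glutamate, glutamine and branched-chain amino acids, 1 rose and 1 fell (median -0.03). Got2, the mitochondrial aspartate aminotransferase, fell from 27859, 26721, 25351 and 25431 in controls to 18395, 15841, 18935 and 16344 in Gen-treated mice. The difference in log2 was -0.60 ± 0.11 (SE, limma adjusted p = 0.0236). Aldh18a1, Mthfd2 and Got2 were the genes of the 5 lists still called without the dim probes, at adjusted p = 0.0441, 0.0487 and 0.0393 in limma.

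Among 19 measured enzymes of taurine, glycine, creatine, arginine and polyamines, 2 rose and 1 fell (median -0.12). Gldc, the decarboxylase of the glycine cleavage system, had signals of 128, 299, 371 and 314 in controls and of 51.2, 49.9, 129 and 107 in Gen-treated mice (-1.75 ± 0.44, SE, limma adjusted p = 0.0289). As for Slc6a14, control replicate 1 was the lowest of the controls and lay within the Gen range. Arg1, arginase, rose (1.03, adjusted p = 0.0314 in limma), as did Sat1, which acetylates polyamines (0.37, adjusted p = 0.0460 in limma). Among 17 measured accessory proteins and other carriers, 3 rose and none fell (median 0.01). Slc15a2, a proton-coupled peptide transporter, rose from 9533, 7826, 8151 and 8021 to 12054, 13161, 14101 and 20479 (0.81 ± 0.18, SE, limma adjusted p = 0.0238). Anpep, the aminopeptidase that releases amino acids from peptides at the cell surface, rose (0.74, adjusted p = 0.0344 in limma), and so did the aromatic amino acid carrier Slc16a10 (0.55, adjusted p = 0.0236 in limma). In all 3 the groups did not overlap, as for 5 of the 15 genes of this list on all 8 arrays (33.3%, beside 12.4% of all such probes).

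**Figure D5:**
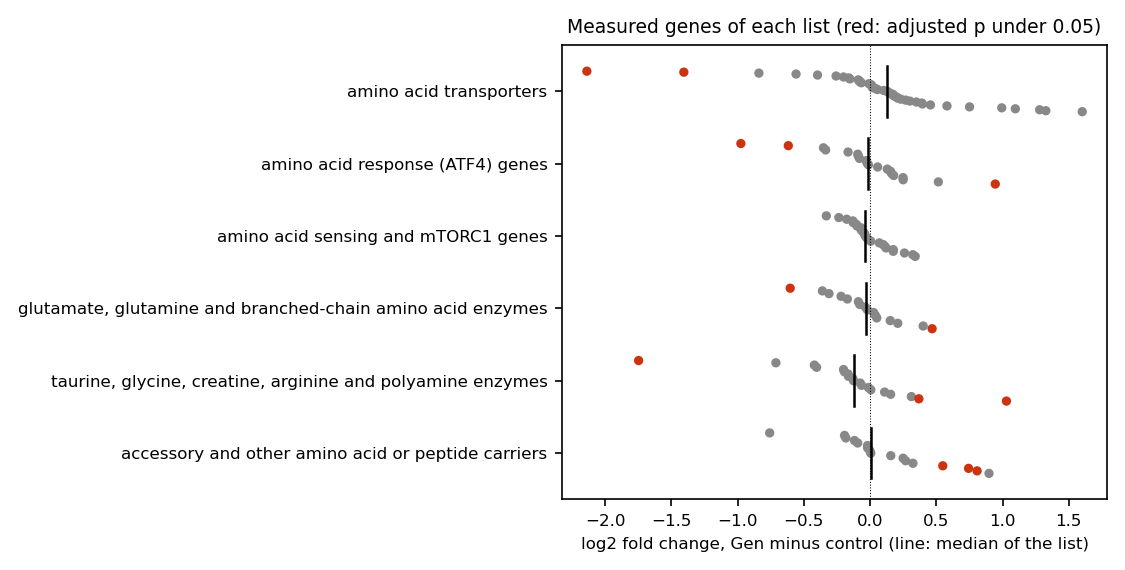
Log2 fold change (Gen minus control) of the measured genes of the transporter set and of the 5 other lists, with a point for each gene, called genes in red and a line at the median. Of the transporters, 2 are red and lower, and of the accessory and other carriers 3 are red and higher.

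The labelled tissue was checked by its markers. All 10 secretory and general epithelial markers and 10 of 11 ciliated ones with a probe were measured, with median log2 fold changes of -0.08 and -0.03, 1 secretory marker lower and no ciliated one called. Smooth muscle (10 of 10 measured, median -0.26), endothelium (10 of 10, 0.20) and stratified squamous epithelium (8 of 12, 0.07) had none called. The squamous markers Krt6a, Dsg3, Dsc3 and Ivl were on no array. B and plasma cells had 4 of 10 higher (median 1.21), T and natural killer cells 2 of 10 higher (0.59), macrophages 1 of 10 higher (0.39), and nerve and glia 1 of 7 measured higher (0.53). Mast cells had 1 of 6 lower (-0.15), and red blood cells (4 of 6 measured, 0.63) none. The summed B and plasma cell signal ran from 55152 to 68689 in controls and from 91762 to 121178 in Gen-treated mice, and that of T and natural killer cells from 1888 to 2165 and from 2276 to 2882. The summed mast cell signal ran the other way, from 196652 to 280861 in controls and from 126971 to 156384 in Gen-treated mice. These 3 sums, and that of the ovarian markers above, did not overlap between the groups, nor did the signals of Slc1a3. The sums of the other marker lists overlapped, and 12.4% of all probes on all 8 arrays had groups without overlap. A sum of linear signals weighs its brightest genes most. The part of these cells in any member was not tested.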

How the data were processed

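Oviduct RNA of 4 control and 4 Gen biological replicates was hybridised to 1-dye arrays. The authors extracted and deposited each array with Agilent Feature Extraction 9.5. Its processed signal, a linear intensity, had been corrected for background and detrended within arrays, with no scaling between them. The deposited series table held the same intensity values in all 45018 spots. Positions of probes follow the design of the array (mm7).

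The 1639 control spots and outlier spots were left out, spots of a probe were averaged as log2 signal, and arrays were scaled to the mean of their 75th percentiles. Groups were compared with limma 3.58.1 (lmFit, eBayes) in R 4.3.3, and p-values were adjusted by Benjamini-Hochberg over 41173 probes of 41174. Between 25366 and 28943 probes were well above background on a control array, and between 29537 and 31488 on a Gen array. These numbers, with the number of arrays, limit the precision. The steps were tested on simulated data. Plots were drawn with matplotlib 3.10.9, and promoters were read from RefSeq tables.

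Members, lists and tests were chosen with earlier results of these data known. The genes named are the called members, members without overlap between groups, members with a set role in epithelial transport, both chains of the exchangers, probes of a gene that disagree, and the 3 called genes with the largest change in each pathway list. The remaining members with values, and the markers Cyp11a1, Gdf9, Inha and Adipoq, were named after their values were seen. Alternatives covered the scaling, the background correction, dim probes, outlier spots, the test, the probe of a gene and each array left out. A few results are not reported here.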

Additional observations from a re-analysis of the deposited data

Results flagged for a closer look

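Of 61 sets of 4 arrays examined for the members, 1 held an array that stood apart from the other 3, and chance alone gives about 1 in 20. For Slc3a2, the heavy chain of the exchangers, control replicate 1 had a signal of 25908, where the other 3 controls lay between 31206 and 31845. The gap made up 0.902 of the range of the group. Its value is close to the lowest Gen arrays, at 27028 and 27085.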

How the results depend on the processing

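The 2 genes called lower, Slc1a3 and Slc6a14, had a negative log2 fold change in all 19 alternatives run, from -1.54 to -0.75 and from -2.56 to -1.71, but the call depended on the processing. The count called lower was 0 with quantile normalization, without scaling, with only probes well above background, with a floor at a signal of 41.9, with the replicate block, in the methods' t-test after adjustment, and without Gen replicates 1 and 2 (an alternative added after the data were seen). It was 1 with normexp and 1 with the mean over a gene's probes, and between 0 and 1 when an array was left out. It was 3 with the trend and robust options, which added Slc7a4 (adjusted p = 0.0352 in limma), and 2 with the outlier spots kept. The count called higher was 0, but 1 with the trend and robust options, 2 with the mean over probes and between 0 and 1 when an array was left out. At the thresholds of the study the count lower was 1 with the floor, the replicate block, the methods' t-test, the mean over probes and without Gen replicates 1 and 2, and between 1 and 2 when an array was left out. The count higher there was 4 without scaling, 1 without Gen replicates 1 and 2, and between 0 and 1 when an array was left out. Without scaling the median over probes on all 8 arrays moved to 0.24. Over the whole array the calls fell from 6674 to 178 with quantile normalization, 640 without scaling, 251 with normexp, 22 with the floor, 1 with the replicate block, 0 in the methods' t-test, 97 without control replicate 1, and 3, 2 and 1 without Gen replicate 1, 2 and 3. The calls numbered 5703, 5812 and 7130 without control replicate 2, 3 and 4, and 6042 without Gen replicate 4. Some of these alternatives had fewer probes or arrays, and the cause of the differences in calls was not tested. Signal over background limits the dim members, and for these only the presence or absence of a reading can be given. The median over members when an array was left out ran from 0.07 to 0.13. The replicate numbers showed no sign of a pairing of the mice, which does not exclude one. The study describes its controls as littermates, but the labels name no litter, and litter was not modelled. Deviations from the group means of same-numbered arrays correlated at between -0.18 and 0.10 across probes, and each control array correlated better with a Gen array of another number.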
